A study of Mus musculus with 106 samples.

Results

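Ribosome-bound mRNA of parvalbumin (PV) neurons was compared with that of all Gad2 neurons of the cerebrum in control mice. The libraries were chosen by their labels: control genotype, cerebrum, RiboTag immunoprecipitation (IP) and a PV or a Gad2 Cre line, which gave 12 of the 106 libraries of the series, 6 for each line. RiboTag mice carry an allele of the ribosomal protein gene *Rpl22* that gains an HA tag where Cre is expressed, and an antibody to the tag then pulls down ribosomes with their mRNA from those cells. Control mice were Hdh Q7/Q7 and HD mice, used here as another set of libraries, were Hdh Q7/Q200 with an expanded CAG repeat in an *Htt* allele. Mice of the PV and Gad2 lines were on the 129S4 background, about 9 months old, and heterozygous both for the RiboTag allele and for PV-IRES-Cre or Gad2-IRES-Cre, each of which expresses Cre from the locus of the marker gene. Control cerebral IPs of an SST and a vGluT2 line were used only where named. The vGluT2 mice were also about 9 months old and carried vGluT2-IRES-Cre, while the labels gave no age for the SST mice. The cerebrum was taken without cerebellum and olfactory bulb. Each PV library pooled duplicate IPs of the same homogenate. The 12 IPs came from 12 mice, and 6 of these mice, 3 of each line, also gave a total RNA library that holds the mRNA of all cells of the tissue. The lines were different mice, so that no difference between them could be measured within an animal.

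PV marks fast-spiking interneurons of the cortex, hippocampus and striatum, which fire long trains of brief spikes and inhibit the cell bodies and axon initial segments of their targets. Outside these regions PV is also made by pallidal, reticular thalamic and some brain stem neurons, not all of which are GABAergic. Gad2 makes GABA in nearly all inhibitory neurons, so that a Gad2 IP includes the PV interneurons themselves together with striatal projection neurons, which are the main neurons of the striatum, and with SST, VIP, neurogliaform and other interneurons. The PV IPs are therefore only in part a subset of the population in the Gad2 IPs.

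Depth was alike in both lines, with 23256772 to 47869606 counts on mouse genes in PV IPs and 25849571 to 42528280 in Gad2 IPs. The total RNA libraries held 32421756 to 47574064 counts in the PV line and 34250550 to 39831602 in the Gad2 line. Some libraries stood apart. Gad2 IP replicate 5 detected 14248 protein-coding genes, against 16255 to 16501 in the other Gad2 IPs, and its 10 most abundant genes took 14.0% of counts, against 4.66 to 6.30%. Levels are given in TMM-normalised CPM, that is counts scaled to a common library size after correction for composition. PV IP replicate 2 carried transcripts of cerebellar neurons, with 85.0 CPM of the Purkinje cell gene *Pcp2* and 27.5 CPM of the granule cell gene *Gabra6*. *Pcp2* was also at 40.0 and 16.7 CPM in PV replicates 6 and 4, against 0.525 to 3.06 CPM in PV replicates 1, 3 and 5. Among the Gad2 IPs, replicate 4 had 71.6 CPM of *Pcp2*.

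Of 14501 protein-coding genes with a mean count above 10, 4589 (31.6%) were called higher and 3815 (26.3%) lower in PV than in Gad2 IPs, so that 58% of the genes tested differed. Genes were tested with the quasi-likelihood test of edgeR and called at a Benjamini-Hochberg (BH) adjusted p of 0.05 or less. Log2 fold changes are PV over Gad2, and each SE is that of the fold change it follows. Calls with a log2 fold change above 1 numbered 1499 (10.3%) and calls below −1 numbered 951 (6.56%). In 2796 genes (19.3%) every PV library lay above every Gad2 library, and in 2230 (15.4%) every PV library lay below. The median log2 fold change of all genes tested was 0.07, and −0.01 to 0.08 when each library was left out. With so many genes called, a count of called members of a gene list means little unless it is read against these shares. The numbers were 3962 and 4366 without Gad2 replicate 5, 3584 and 4096 without PV replicate 5, 4009 and 4348 without PV replicate 6, and 4240 and 3563 without PV replicate 2, so that the direction with more calls turned with which of the first 3 libraries was left out. In bulk libraries such as these, fewer cells of a type and less RNA per cell cannot be told apart.

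The marker genes of the comparison were opposite in direction. *Pvalb*, which encodes the calcium buffer that names the cells (chromosome 15, 78191114 to 78206400, minus strand, GRCm38), was higher in PV IPs, and *Drd1*, the dopamine receptor of direct pathway striatal projection neurons (chromosome 13, 54051183 to 54055705, minus strand), was lower. *Pvalb* (ENSMUSG00000005716.16) had 499 to 757 CPM (median 679) in PV IPs and 309 to 623 CPM (median 411) in Gad2 IPs. Its 2 ranges overlapped, since Gad2 replicates 4 and 6 (623 and 534) lay above PV replicate 1 (499), and the difference was small but called (log2 fold change 0.59, SE 0.153, edgeR BH-adjusted p = 0.00417). With *Xist* as a covariate for the sex of the mice the call was lost (log2 fold change 0.38, edgeR BH-adjusted p = 0.0902). *Drd1* (ENSMUSG00000021478.6) had 18.5 to 29.1 CPM (median 24.1) in PV IPs and 126 to 174 CPM (median 146) in Gad2 IPs. No library of one line reached the range of the other, and the level was 6.12-fold lower in PV IPs (log2 fold change −2.61, SE 0.118, edgeR BH-adjusted p = 3.25e-10). Total RNA of the same lines had a median of 114 CPM of *Pvalb* and 24.7 CPM of *Drd1*, so that both IPs lay above the tissue in *Pvalb*, while the total RNA median of *Drd1* fell inside the range of PV IPs.

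**Figure D1:**
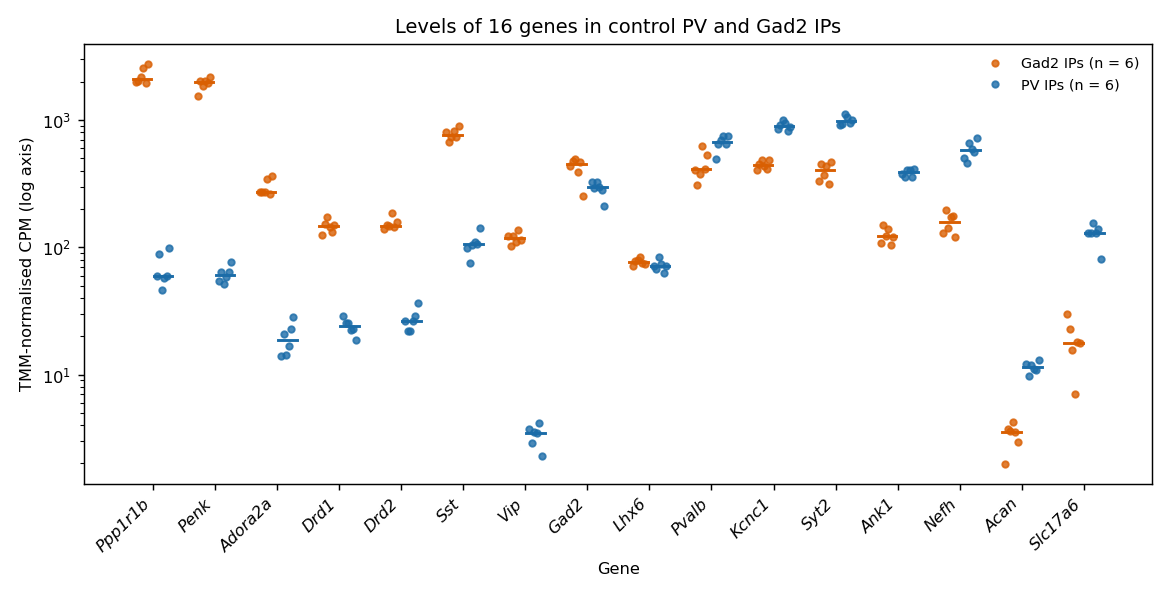
Levels of 16 genes in each control IP library, in TMM-normalised CPM on a log axis, with a bar at the median of each group of 6. Levels of the striatal genes *Ppp1r1b*, *Penk*, *Adora2a*, *Drd1* and *Drd2* were lower in every PV library (blue) than in every Gad2 library (orange), whereas *Syt2*, *Kcnc1*, *Ank1*, *Nefh*, *Acan* and *Slc17a6* were higher in every PV library, and *Pvalb*, *Lhx6* and *Gad2* overlapped.

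Genes of PV interneurons were higher in PV IPs as a group, by a modest amount. The list was chosen with earlier results of these data known, so it is not an independent test. It holds *Ank1*, *Syt2*, *Cplx1* and *Pthlh*, which the authors had reported as enriched in their PV IPs. Of 24 genes linked to fast-spiking PV cells, all of them tested, 20 were called higher and 1 lower, with a median log2 fold change of 0.83. The largest differences among them were in *Ank1*, an ankyrin that anchors membrane proteins to the spectrin skeleton, in *Eya4*, a transcriptional coactivator, and in *Syt2*, the fast calcium sensor of transmitter release in PV terminals. *Ank1* had 356 to 413 CPM (median 392) in PV IPs and 105 to 149 CPM (median 122) in Gad2 IPs (log2 fold change 1.63, SE 0.0979, edgeR BH-adjusted p = 6.67e-09). *Syt2* had 909 to 1119.8 CPM (median 979) and 316 to 469.5 CPM (median 403) (log2 fold change 1.33, SE 0.11, edgeR BH-adjusted p = 1.83e-07). Neither gene overlapped between the lines, whereas *Eya4*, with 6.35 to 17.3 CPM (median 14.4) and 2.57 to 7.04 CPM (median 5.45), did (1.36, SE 0.26). *Kcnc1*, the Kv3.1 potassium channel that lets these cells repolarize fast, had 825 to 1008 CPM (median 901) in PV IPs and 404 to 488 CPM (median 446) in Gad2 IPs, a 2.03-fold difference with no overlap (log2 fold change 1.02, SE 0.0806, edgeR BH-adjusted p = 1.20e-07). The transcriptional coactivator *Ppargc1a* and the orphan nuclear receptor *Esrrg*, which act together on mitochondrial genes, had log2 fold changes of 1.03 (SE 0.186) and 1.19 (SE 0.196). Both overlapped, with Gad2 replicates 2 and 3 above PV replicate 6. *Cplx1*, the complexin of fast synapses, had 2302 to 3094 CPM (median 2647) and 1501 to 2163 CPM (median 1747) (log2 fold change 0.58, SE 0.106, edgeR BH-adjusted p = 3.00e-04).

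Some members of the PV list were lower, not called, or called only in some settings. *Lhx6*, the transcription factor of interneurons born in the medial ganglionic eminence, which SST cells share, had 62.6 to 83.5 CPM (median 71.2) in PV IPs and 71.5 to 83.5 CPM (median 76.2) in Gad2 IPs. These ranges overlapped and the test made no call (log2 fold change −0.10, SE 0.0824, edgeR BH-adjusted p = 0.304). *Plcxd3* and *Pthlh* were not called either (0.90 and 0.19, edgeR BH-adjusted p = 0.0976 and 0.211), although the fold change of *Plcxd3* lay above the median of the list. *Rbp4*, a retinol carrier, was lower in PV IPs, with 15.3 to 24.3 CPM (median 20.1) against 40.0 to 56.7 CPM (median 44.6) (log2 fold change −1.21, SE 0.127, edgeR BH-adjusted p = 1.87e-06). *Erbb4*, the neuregulin receptor of many interneurons, was called higher at 0.62 (SE 0.223), but its edgeR BH-adjusted p of 0.026 rose to between 0.0522 and 0.0601 when any of Gad2 replicates 4 and 6 or PV replicates 1, 3 and 5 was left out, and it was not called with all control cerebral IPs in 1 fit (0.53, edgeR BH-adjusted p = 0.106).

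Genes of striatal projection neurons made up the clearest difference in the opposite direction. Of 28 such genes 27 were tested, and 25 were called lower and 2 higher in PV IPs, with a median log2 fold change of −2.11 that stayed between −2.27 and −2.03 across 24 settings, the one reported and 23 alternatives. *Ppp1r1b*, which encodes the phosphatase inhibitor DARPP-32, had 46.5 to 98.9 CPM (median 59.6) in PV IPs and 1952 to 2766 CPM (median 2117) in Gad2 IPs. This was a 33.0-fold difference (log2 fold change −5.04, SE 0.198, edgeR BH-adjusted p = 1.01e-10). *Penk*, the enkephalin precursor of the indirect pathway, had 51.8 to 77.2 CPM (median 60.9) and 1540.0 to 2175 CPM (median 1997), a 31.4-fold difference (log2 fold change −4.97, SE 0.127, edgeR BH-adjusted p = 1.90e-12). *Adora2a*, the adenosine receptor of the same pathway, had 14.0 to 28.5 CPM (median 18.8) against 262 to 363 CPM (median 273) (log2 fold change −3.93, SE 0.182, edgeR BH-adjusted p = 4.28e-10). In none of these 3 genes did the lines overlap. The authors had already reported them, *Drd1* and *Drd2* as depleted in their PV IPs. Genes of both pathways were lower: the direct pathway genes *Pdyn* (dynorphin) and *Tac1* (substance P) had log2 fold changes of −3.26 (SE 0.13) and −2.60 (SE 0.127), and the indirect pathway receptors *Drd2* and *Gpr6* had −2.51 (SE 0.13) and −3.82 (SE 0.157). Summed over the list, PV IPs held 2045 to 2473 CPM and Gad2 IPs 10686 to 12952 CPM, with 3386 to 4408 CPM in total RNA, so that PV IPs also lay below the tissue. The 2 members called higher were *Spon1*, an extracellular matrix protein (0.44, SE 0.0896), and *Ebf1*, a transcription factor also made outside the striatum (0.47, SE 0.167, edgeR BH-adjusted p = 0.0266). The call of *Ebf1* was lost without any of Gad2 replicates 3 to 6 or PV replicates 2 and 5, with adjusted p-values of 0.0509 to 0.0733 in the same test, and with all control cerebral IPs in 1 fit (0.38, edgeR BH-adjusted p = 0.271) and all gene types (0.40, edgeR BH-adjusted p = 0.0568).

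Markers of other interneuron classes were lower in PV IPs. The authors had already reported *Sst* and *Vip* as depleted there. Among 25 genes of SST, VIP, CCK, neurogliaform, NPY and cholinergic interneurons, 17 were called lower and 1 higher, and the median log2 fold change was −0.88. *Vip* had 2.27 to 4.19 CPM (median 3.50) in PV IPs and 103 to 136 CPM (median 119) in Gad2 IPs (log2 fold change −5.14, SE 0.146, edgeR BH-adjusted p = 2.17e-12). *Sst* had 74.7 to 141 CPM (median 105) against 672 to 892 CPM (median 771) (log2 fold change −2.87, SE 0.134, edgeR BH-adjusted p = 4.50e-10). Levels did not overlap in either gene. *Tac2*, which encodes neurokinin B, had the lowest log2 fold change of the list (−5.17, SE 0.215), and *Npy* and *Cck* had log2 fold changes of −2.50 (SE 0.179) and −0.81 (SE 0.135). The member called higher was *Sncg*, a synuclein of CCK cells (0.55, SE 0.206), whose call was lost without any of Gad2 replicates 3, 4 and 5 or PV replicates 3, 5 and 6, with edgeR BH-adjusted p-values of 0.0631 to 0.118. It was also lost with *Xist* as a covariate (0.24, edgeR BH-adjusted p = 0.449), both genotypes in 1 fit (0.22, edgeR BH-adjusted p = 0.329), all control cerebral IPs in 1 fit (0.48, edgeR BH-adjusted p = 0.0737), the replicate block (0.57, edgeR BH-adjusted p = 0.066) and all gene types (0.48, edgeR BH-adjusted p = 0.0562). Nitric oxide synthase *Nos1* (0.11, SE 0.108) and the corticotropin-releasing hormone binding protein *Crhbp* (0.10, SE 0.0983) were not called.

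Neuropeptide precursors, a list that shares members with the lists above, held the lowest median of the 25 lists. Of 21 precursors of forebrain GABAergic neurons 20 were tested, and 14 were lower and 1 higher, with a median log2 fold change of −2.28. Beside those already named, *Nts* (neurotensin), *Gal* (galanin) and *Cartpt* were lower, at −2.54 (SE 0.174), −2.80 (SE 0.311) and −2.39 (SE 0.162). *Adcyap1*, which encodes PACAP, was the member called higher, with 7.55 to 10.7 CPM (median 9.29) in PV IPs and 2.62 to 9.15 CPM (median 4.03) in Gad2 IPs (log2 fold change 0.98, SE 0.243, edgeR BH-adjusted p = 0.00303). Its ranges overlapped. Hypothalamic and midbrain GABA genes were also mostly lower where called: of 24 genes 23 were tested, with 11 lower, 1 higher and a median of −0.47. The gene called higher was the dopamine transporter *Slc6a3* (0.79, SE 0.223, not called with *Xist* as a covariate, edgeR BH-adjusted p = 0.0809), at a median of 3.87 CPM in PV IPs.

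Transcription factors of the GABAergic lineage were more often lower than higher in PV IPs. Of 26 factors of forebrain GABAergic neurons 16 were called lower and 5 higher, with a median log2 fold change of −0.71. The distal-less factors, which specify GABAergic identity, were lower in all 4 members on the list: *Dlx1* and *Dlx2* at −0.87 (SE 0.131) and −0.91 (SE 0.131), and *Dlx5* and *Dlx6* at −1.60 (SE 0.142) and −1.78 (SE 0.185). *Foxp2*, a factor of striatal projection neurons, had 6.77 to 16.7 CPM (median 13.4) in PV IPs and 23.4 to 80.8 CPM (median 59.6) in Gad2 IPs (log2 fold change −2.06, SE 0.273, edgeR BH-adjusted p = 1.69e-05). Among the factors called higher were *Sox6* (0.90, SE 0.127), *Satb1* (0.78, SE 0.146), *Maf* (0.56, SE 0.13) and *Ebf1*. *Sox6*, *Satb1* and *Maf* act in interneurons derived from the medial ganglionic eminence. *Sox6* had 27.6 to 40.2 CPM (median 35.4) against 15 to 22.4 CPM (median 18.7) with no overlap (log2 fold change 0.90, SE 0.127, edgeR BH-adjusted p = 3.01e-05).

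**Figure D2:**
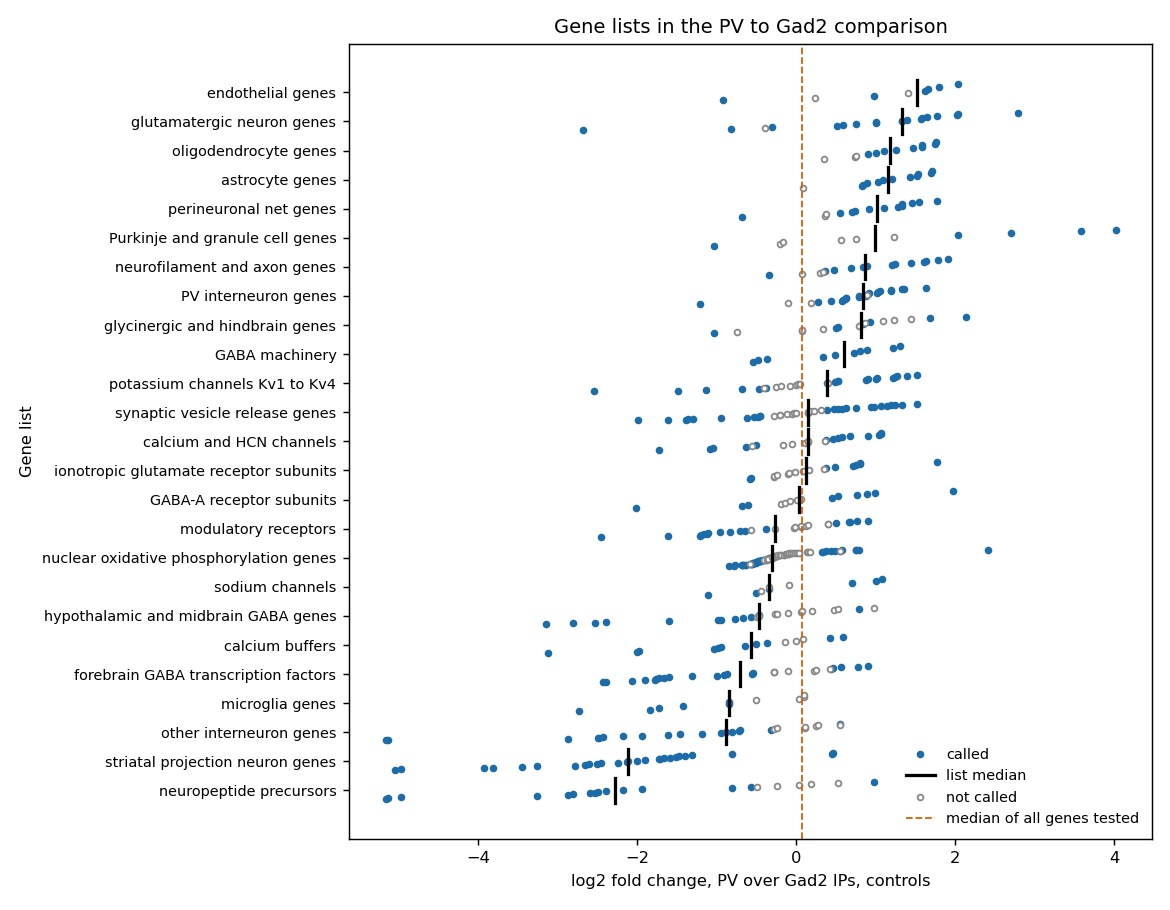
Log2 fold changes (PV over Gad2 IPs, control mice) of the tested members of 25 gene lists, with called genes filled, genes not called open, list medians as black bars and the median of all genes tested as a dashed line. The medians ran from −2.28 for neuropeptide precursors to 1.51 for endothelial genes, around a median of 0.07 for all genes.

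Genes that make, pack and clear GABA differed in both directions. All 10 genes of GABA synthesis, packaging, uptake and breakdown were called, 7 higher and 3 lower, with a median log2 fold change of 0.60. *Gad1*, the larger GABA-synthesizing enzyme, had 1442 to 2196 CPM (median 2005) in PV IPs and 1217 to 1721 CPM (median 1586) in Gad2 IPs (log2 fold change 0.34, SE 0.111, edgeR BH-adjusted p = 0.0166), and its call was lost without PV replicate 5 (edgeR BH-adjusted p = 0.0697), with all control cerebral IPs in 1 fit (0.25, edgeR BH-adjusted p = 0.188) and with all gene types (0.27, edgeR BH-adjusted p = 0.0552). *Gad2*, the smaller enzyme and the locus of the Gad2 driver, had 209.9 to 327 CPM (median 296) and 255 to 495 CPM (median 455) (log2 fold change −0.54, SE 0.15, edgeR BH-adjusted p = 0.00626), and its call was lost with *Xist* as a covariate (edgeR BH-adjusted p = 0.08). The vesicular transporter *Slc32a1* was also called lower, at −0.49 (SE 0.105). In each of these 3 genes the lines overlapped, and the fold differences ran from 1.27 for *Gad1* to 1.45 for *Gad2*. The largest difference in the list was in *Slc6a13*, a carrier of meninges and blood vessels (1.30, SE 0.373), followed by *Glul*, the glutamine synthetase of astrocytes (1.21, SE 0.199), and the astrocytic carrier *Slc6a11* (0.89, SE 0.219). These 3 are made mainly outside neurons. *Slc6a13* was low in both lines, at 1.82 to 3.12 CPM in PV IPs and 0.29 to 1.63 CPM in Gad2 IPs.

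Potassium and sodium channel genes differed in both directions. Of 27 voltage-gated potassium channel genes of the Kv1 to Kv4 families and their auxiliary subunits, 13 were called higher and 6 lower, with a median of 0.39 (0.25 to 0.56 across the settings). *Kcna2* and *Kcnab3*, a Kv1 pore subunit of axons and an auxiliary subunit, had 1.22 (SE 0.116) and 1.25 (SE 0.0904), and *Kcns3*, a silent subunit known from PV cells, had 1.0 (SE 0.115). Lower were *Kcna5* (−2.54, SE 0.139), *Kcna4*, an A-type channel (−1.48, SE 0.165), and *Kcnip3*, a partner of Kv4 channels (−1.13, SE 0.138). Of 9 sodium channel genes 3 were higher and 3 lower, near the shares over all genes. The axonal pore subunits *Scn8a* and *Scn1a* were higher, at 1.01 (SE 0.125) and 1.08 (SE 0.199), while the auxiliary subunits *Scn3b*, *Scn4b* and *Scn2b* were lower, at −1.11 (SE 0.0936), −0.50 (SE 0.0913) and −0.34 (SE 0.131). *Scn1a* had 182 to 391 CPM (median 345) in PV IPs and 97.2 to 211 CPM (median 148) in Gad2 IPs, which overlapped at the lowest PV library. *Scn2b* lost its call without any of Gad2 replicates 2, 3 and 6 or PV replicate 4 (edgeR BH-adjusted p-values 0.0626 to 0.0868), and with *Xist* as a covariate (−0.12, edgeR BH-adjusted p = 0.519). The median of the sodium channel list was −0.34, and −0.42 to −0.12 across the settings.

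Calcium and HCN channels gave a median of 0.15 (0.07 to 0.33 across the settings), with 9 of 21 genes called higher and 5 lower. Of all genes tested, 31.6% were called higher and 26.3% lower. The pacemaker channels *Hcn2* and *Hcn4* had log2 fold changes of 1.07 (SE 0.0963) and 1.04 (SE 0.113), and *Hcn2* had 277 to 369 CPM (median 303) in PV IPs against 128 to 167 CPM (median 151) in Gad2 IPs, with no overlap. *Cacna1a*, the P/Q-type pore subunit that drives transmitter release at PV terminals, had 128 to 185 CPM (median 171) and 63.9 to 112 CPM (median 84.7) (log2 fold change 0.91, SE 0.132, edgeR BH-adjusted p = 4.02e-05). The genes called lower were the auxiliary subunits *Cacnb1*, *Cacnb2*, *Cacnb3*, *Cacng3* and *Cacna2d3*, of which *Cacnb1* had 52.2 to 70.7 CPM (median 54.6) against 145 to 226 CPM (median 189) (log2 fold change −1.72, SE 0.121, edgeR BH-adjusted p = 3.39e-08).

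Genes of synaptic vesicle release differed in both directions. Of 38 genes 14 were called higher and 11 lower, near the shares over all genes, and their median log2 fold change of 0.15 was 0.01 to 0.18 across the settings. Among synaptobrevins, *Vamp1* had 1176 to 1578 CPM (median 1325) in PV IPs and 410.4 to 727 CPM (median 555) in Gad2 IPs (log2 fold change 1.25, SE 0.128, edgeR BH-adjusted p = 1.55e-06), whereas *Vamp2* had 816 to 1063 CPM (median 885) and 1452 to 2181 CPM (median 1683) (log2 fold change −0.95, SE 0.103, edgeR BH-adjusted p = 2.60e-06). Neither overlapped. Synaptotagmins likewise differed in direction, with *Syt2* higher and *Syt1*, the main sensor of other forebrain synapses, lower (−0.48, SE 0.132). *Syt5* and *Syt6* were lower still, at −1.61 (SE 0.125) and −1.99 (SE 0.126). For complexins, *Cplx1* was higher and *Cplx2* lower (−0.45, SE 0.12). The priming factors *Unc13a* and *Unc13b* were higher, at 1.19 (SE 0.122) and 1.52 (SE 0.133). *Syt1* and *Cplx2* were no longer called with *Xist* as a covariate, at edgeR BH-adjusted p-values of 0.0795 and 0.0913, nor was *Syt1* with both genotypes in 1 fit (−0.28, edgeR BH-adjusted p = 0.13).

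Most calcium buffers that were called were lower. Of 15 EF-hand buffers and sensors 14 were tested, and 9 were called lower and 2 higher, with a median of −0.58. *Hpca*, the hippocalcin of striatal and hippocampal projection neurons, had 245 to 303 CPM (median 269) in PV IPs and 2018 to 2901 CPM (median 2251) in Gad2 IPs, which is 8.69-fold lower (log2 fold change −3.12, SE 0.104, edgeR BH-adjusted p = 1.15e-11). *Calb2*, calretinin, had −0.95 (SE 0.11). *Calb1*, calbindin, had 73.8 to 317 CPM (median 111) against 232 to 327 CPM (median 299.9) (log2 fold change −1.04, SE 0.273, edgeR BH-adjusted p = 0.00444). The highest PV value belonged to replicate 2, which also had the most *Pcp2* of the PV IPs. Beside *Pvalb*, the buffer called higher was *Ncs1*, the neuronal calcium sensor 1 (0.42, SE 0.111). *Calb1* and *Ncs1* lost their calls with *Xist* as a covariate (edgeR BH-adjusted p = 0.0791 and 0.124), where 0 buffers were called higher, and with both genotypes in 1 fit (edgeR BH-adjusted p = 0.103 and 0.0846).

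Perineuronal nets are sheaths of proteoglycans around PV cells, and their genes were higher in PV IPs. Of 15 such genes 14 were tested, and 11 were called higher and 1 lower, with a median log2 fold change of 1.01. *Acan*, the aggrecan core protein, had 9.75 to 13.0 CPM (median 11.4) in PV IPs and 1.99 to 4.22 CPM (median 3.55) in Gad2 IPs (log2 fold change 1.78, SE 0.163, edgeR BH-adjusted p = 4.99e-07). *Hapln4*, a link protein of nets, had 564 to 727 CPM (median 632) and 185 to 311 CPM (median 271) (log2 fold change 1.28, SE 0.117, edgeR BH-adjusted p = 4.73e-07). Neither overlapped. The list also holds proteoglycans that glia make, among them *Bcan* (1.32, SE 0.121) and *Ptprz1* (1.54, SE 0.207). The member called lower was the hyaluronan synthase *Has1* (−0.68, SE 0.185), at a median of 3.82 CPM in PV IPs.

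Genes of large axons were higher as well. Among 16 neurofilament, axon initial segment and nodal genes 12 were called higher and 1 lower, with a median of 0.87. These genes are long, with a median exonic length of 9905.5 bases against 4493 over all genes tested. In the longest of 5 length classes 1464 of 2899 genes were called higher, with a median of 0.39. *Nefh*, the heavy neurofilament, had 462 to 721 CPM (median 579) in PV IPs and 119.9 to 195 CPM (median 157) in Gad2 IPs (log2 fold change 1.90, SE 0.14, edgeR BH-adjusted p = 5.65e-08). The medium and light chains *Nefm* and *Nefl* had 1.44 (SE 0.224) and 1.25 (SE 0.0924), and *Sptbn1*, a spectrin, had 1.79 (SE 0.168). None of these 4 overlapped. *Cntnap2*, a partner of Kv1 channels beside the nodes, was called lower (−0.34, SE 0.132), but not without any of Gad2 replicates 2 and 3 or PV replicates 2 and 4, with edgeR BH-adjusted p-values of 0.055 to 0.0812, nor with *Xist* as a covariate (−0.19, edgeR BH-adjusted p = 0.357) or library totals without TMM (−0.31, edgeR BH-adjusted p = 0.0509).

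Lists of ionotropic receptors gave medians near that of all genes, whereas modulatory receptors were more often lower. For comparison, 31.6% of all genes tested were called higher and 26.3% lower. Of 14 GABA-A receptor subunits 6 were called higher and 3 lower, with a median of 0.03 that was −0.08 to 0.19 across the settings tried, so its sign was not stable. Summed over the list, PV IPs held 3494 to 8804 CPM and Gad2 IPs 1801 to 3160 CPM, without overlap. The subunits called lower were *Gabre*, *Gabra4* and *Gabrg1*, at −2.02 (SE 0.327), −0.69 (SE 0.214) and −0.60 (SE 0.24). With *Xist* as a covariate *Gabra4* and *Gabrg1* lost their calls (edgeR BH-adjusted p = 0.147 and 0.263). The call of *Gabrg1* was also lost without any of Gad2 replicates 1, 2, 3 and 5 or PV replicates 2, 3 and 4 (edgeR BH-adjusted p-values 0.0512 to 0.0757). Of 18 ionotropic glutamate receptor subunits 7 were higher and 2 lower, the 2 being the kainate subunits *Grik1* (−0.58, SE 0.173) and *Grik2* (−0.57, SE 0.182), with a median of 0.12 that also changed sign across settings (−0.02 to 0.23). Both kainate subunits lost their calls with *Xist* as a covariate (edgeR BH-adjusted p = 0.131 and 0.194) and with both genotypes in 1 fit (edgeR BH-adjusted p = 0.0543 and 0.079). *Gria4*, an AMPA subunit of fast interneurons, had 0.80 (SE 0.14), and *Grin2c* had 1.77 (SE 0.192). Among 27 modulatory receptors 12 were lower and 5 higher, with a median of −0.26. The cannabinoid receptor *Cnr1*, typical of CCK cells, had 56.7 to 134 CPM (median 92.3) in PV IPs and 217 to 354 CPM (median 279) in Gad2 IPs (log2 fold change −1.62, SE 0.171, edgeR BH-adjusted p = 2.02e-06). Those called higher were *Gabbr2* (0.76, SE 0.1), *Adora1* (0.50, SE 0.102), *Drd5* (0.67, SE 0.17), *Grm2* (0.68, SE 0.149) and *Oprd1* (0.91, SE 0.373). *Oprd1*, an opioid receptor, passed narrowly (edgeR BH-adjusted p = 0.0488) and lost its call in 8 of the 12 fits that left out a library, those without Gad2 replicates 1, 4, 5 and 6 and PV replicates 1, 2, 3 and 6, with adjusted p-values of 0.0631 to 0.113 in the same test. It was not called by DESeq2 either (0.87, DESeq2 BH-adjusted p = 0.0759), nor in edgeR with DESeq2 size factors, no filter, all gene types or all control cerebral IPs in 1 fit.

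Genes of respiration were called lower more often than higher. Of 87 nuclear genes of respiratory complexes I to V 85 were tested. Of these 44 were called lower, 11 higher and 30 were not called, with a median log2 fold change of −0.31. The number called lower ranged from 30 to 62 across the settings. *Ndufa7* and *Uqcr11*, small subunits of complexes I and III, had −0.85 (SE 0.154) and −0.78 (SE 0.139). Higher were *Ndufs1* and *Sdha*, large catalytic subunits of complexes I and II, at 0.75 (SE 0.124) and 0.76 (SE 0.0931), and the muscle-type subunits of cytochrome oxidase *Cox6a2* and *Cox8b*. *Cox6a2*, which PV interneurons are known to make, had 19.9 to 30.5 CPM (median 27.3) in PV IPs and 11.3 to 19.4 CPM (median 15.2) in Gad2 IPs (log2 fold change 0.79, SE 0.15, edgeR BH-adjusted p = 3.97e-04). *Cox8b* had 4.44 to 8.0 CPM (median 4.99) and 0.331 to 1.37 CPM (median 1.01) (log2 fold change 2.41, SE 0.273, edgeR BH-adjusted p = 3.85e-06). Over all 14501 genes the log2 fold change correlated with exonic length (Spearman's rho = 0.326 across genes, which are not independent), and the medians of 5 classes of rising length were −0.35, −0.06, 0.09, 0.22 and 0.39. Of the respiratory genes 62 were in the shortest class, where their median was −0.34. Among all 2901 genes of that class 1345 were called lower and 388 higher. In the longest class, of 2899 genes, 320 were called lower and 1464 higher. Other lists also differed in length from the median of 4493 bases over all genes tested. Median exonic lengths were 9905.5 bases for neurofilament and axon, 6787.5 for perineuronal net, 6244.5 for PV interneuron and 1349 for neuropeptide genes. The part of transcript length in these results was not tested.

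Markers of glutamatergic neurons were higher in PV IPs, also where they were not higher than in the tissue. Of 19 markers of excitatory neurons 15 were called higher and 3 lower, with a median log2 fold change of 1.33. *Slc17a6*, the vesicular glutamate transporter of thalamus and brain stem, had 81.0 to 154 CPM (median 131) in PV IPs and 7.07 to 30.0 CPM (median 17.8) in Gad2 IPs, a 6.89-fold difference (log2 fold change 2.78, SE 0.264, edgeR BH-adjusted p = 6.69e-07). Its median in total RNA was 50.6 CPM, so that *Slc17a6* in PV IPs exceeded the tissue. *Slc17a7*, the transporter of cortex and hippocampus, had 794 to 1029 CPM (median 876) and 119.7 to 414 CPM (median 194) (log2 fold change 2.02, SE 0.247, edgeR BH-adjusted p = 8.04e-06), but total RNA held 1539.7 CPM. The cortical factor *Tbr1* had 1.57 (SE 0.321). Lines did not overlap in any of these 3 genes. Called lower were *Nrgn*, a calmodulin-binding protein of projection neurons that the striatum also makes (−2.68, SE 0.113), *Slc17a8* (−0.82, SE 0.196) and *Camk2b* (−0.31, SE 0.0995), the last 2 not called with *Xist* as a covariate (edgeR BH-adjusted p = 0.0513 and 0.187). Summed over the list, PV IPs held 4078 to 5096 CPM, Gad2 IPs 3340 to 4625 CPM and total RNA 5795 to 8807 CPM, with *Camk2a* the most abundant member in PV IPs and *Camk2b* in Gad2 IPs. Genes of glycine signalling and the hindbrain included 6 of 16 called higher and 1 lower (*Glra2*, −1.04, SE 0.19), with a median of 0.81. The share called higher was near the 31.6% over all genes tested. The number called higher was 2 to 8 across the settings, lowest without PV replicate 5, and the median 0.35 to 0.91. The glycine transporter *Slc6a5* had 82.8 to 135 CPM (median 99.2) against 24.7 to 100.3 CPM (median 59.7) (log2 fold change 0.84, SE 0.309, edgeR BH-adjusted p = 0.0305), and its call was lost without any of Gad2 replicates 3, 4 and 5 or PV replicates 3 and 5 (edgeR BH-adjusted p-values 0.0547 to 0.0867), and with both genotypes in 1 fit (0.29, edgeR BH-adjusted p = 0.402), *Xist* as a covariate (0.65, edgeR BH-adjusted p = 0.192) and all control cerebral IPs in 1 fit (0.76, edgeR BH-adjusted p = 0.0743).

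Markers of cells outside the targeted populations were present in both IPs and, for most types, higher in PV IPs. Of 12 astrocyte genes 11 were called higher and the other was not called, with a median of 1.15. Their sum was 2213 to 2895 CPM in PV IPs, 789 to 1623 CPM in Gad2 IPs and 5588 to 7244 CPM in total RNA, with *Slc1a2*, the main glutamate carrier of astrocytes, the most abundant in PV IPs (988 to 1443 CPM (median 1171) against 133 to 588 CPM (median 355)). *Apoe* was the astrocyte gene not called (0.08, SE 0.282), but without Gad2 replicate 1, which had 361 CPM against 93.8 to 157 CPM in the other Gad2 IPs, it was higher at 0.53 (edgeR BH-adjusted p = 0.00358). Of 12 oligodendrocyte genes 9 were higher and 3 (*Ermn*, *Opalin* and *Sox10*) were not called, with a median of 1.18. The sum was 1859 to 2917 CPM in PV IPs, 452 to 1699 CPM in Gad2 IPs and 5754 to 6700 CPM in total RNA, with *Mbp*, a myelin protein gene, the most abundant (579.5 to 1104 CPM (median 792) against 199 to 709.6 CPM (median 296)). Without Gad2 replicate 1, whose sum of these genes was the highest of the Gad2 IPs, *Ermn*, *Opalin* and *Sox10* were called higher as well, at 1.17, 0.91 and 1.20 (edgeR BH-adjusted p = 0.000669, 0.0231 and 0.0148). Microglia went the opposite way, with 6 of 10 genes called lower and the other 4 not called, a median of −0.85, and sums of 124 to 151 CPM in PV IPs, 117 to 270.2 CPM in Gad2 IPs and 333 to 597 CPM in total RNA. *C1qb*, a complement gene of microglia, had 2.06 to 3.02 CPM (median 2.56) against 10.2 to 26.9 CPM (median 16.3) (log2 fold change −2.74, SE 0.205, edgeR BH-adjusted p = 6.67e-08). Of 8 endothelial genes 5 (*Cdh5*, *Flt1*, *Slco1a4*, *Pecam1* and *Cldn5*) were higher and *Itm2a* lower, with a median of 1.51 and sums of 36.1 to 45.9 CPM in PV IPs and 17.1 to 37.2 CPM in Gad2 IPs. *Slco1a4* and *Cldn5* lost their calls with *Xist* as a covariate (edgeR BH-adjusted p = 0.0595 and 0.0944). *Cldn5* also lost its call with all control cerebral IPs in 1 fit (0.91, edgeR BH-adjusted p = 0.0502) and without any of Gad2 replicates 3 and 5 or PV replicate 5 (edgeR BH-adjusted p-values 0.0539 to 0.0736). The part of RNA from these cells in the differences between the lines was not tested. Over all genes tested, the log2 fold change correlated with the log2 ratio of total RNA to Gad2 IP (Spearman's rho = 0.399 across genes, which are not independent). In 5 classes of rising ratio its medians were −0.17, −0.12, −0.02, 0.18 and 0.72. Both values share the Gad2 IPs, and the correlation to be found without any change was not estimated.

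Mitochondrially encoded genes held 0.279 to 0.746% of counts in PV IPs, 0.0511 to 0.437% in Gad2 IPs and 1.92 to 7.52% in total RNA.

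Cerebellar genes were uneven between libraries. Their calls are to be read against 31.6% of all genes tested called higher and 26.3% lower. Of 10 Purkinje and granule cell genes 4 were called higher and 1 lower, with a median of 0.99, and their sum reached 2444 CPM in PV replicate 2, against 747 to 1199 CPM in the other PV IPs and 653 to 1147 CPM in Gad2 IPs, with the calcium release channel *Itpr1* the most abundant gene (0.56, SE 0.27, called at 0.70 when Gad2 replicate 2 but no other library was left out). Without PV replicate 2 the counts were 3 and 3 and the median 0.22, and without Gad2 replicate 4 they were 5 and 1 and the median 2.06. *Pcp2*, a Purkinje cell gene, had 0.525 to 85.0 CPM (median 9.89) in PV IPs and 0.0828 to 71.6 CPM (median 0.799) in Gad2 IPs and was not called. *Car8*, another gene of these cells, was not called either (1.23, SE 0.795), except without Gad2 replicate 4 (2.17, edgeR BH-adjusted p = 0.0235). The granule cell genes *Gabra6* and *Cbln3* had 4.02 (SE 1.14) and 3.58 (SE 0.93). Leaving out PV replicate 2 gave 2.06 (edgeR BH-adjusted p = 0.0608) for *Gabra6* and 2.13 (edgeR BH-adjusted p = 0.0189) for *Cbln3*, and *Gabra6* was not called with the replicate block either (2.84, edgeR BH-adjusted p = 0.0855). *Cbln1*, a synapse organizer that is also made outside the cerebellum, had 54.9 to 104 CPM (median 68.7) against 8.49 to 16.3 CPM (median 10.3) without overlap (log2 fold change 2.70, SE 0.187, edgeR BH-adjusted p = 3.15e-08), *Neurod1* was the other member called higher (2.03, SE 0.436, and 1.37 without PV replicate 2), and *Calb1* was the member called lower.

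Some of the largest differences lay outside the lists. By the rule for named genes, the 15 genes with the largest log2 fold change in each direction, levels not overlapping and a mean of at least 5 CPM in the higher line, were taken. Those higher in PV IPs were *Atoh7*, *Slc17a6*, *Spp1*, *Cbln1*, *Nrn1*, *Enpep*, *Fbxo40*, *Cox8b*, *Tmem72*, *Nfe2l2*, *St14*, *Atp13a4*, *Cdk5rap2*, *Nwd1* and *Anxa4*, with log2 fold changes from 2.23 to 3.32. *Spp1*, the secreted phosphoprotein osteopontin, had 244 to 388 CPM (median 298) in PV IPs and 35.4 to 54.1 CPM (median 45.4) in Gad2 IPs, a 6.81-fold difference (log2 fold change 2.77, SE 0.138, edgeR BH-adjusted p = 9.67e-10). *Nrn1*, the extracellular protein neuritin, had 80.3 to 104 CPM (median 86.7) and 6.33 to 32.0 CPM (median 10.6) (log2 fold change 2.61, SE 0.322, edgeR BH-adjusted p = 8.64e-06). *Atoh7*, a proneural transcription factor, was low in both lines, at 4.37 to 8.96 CPM (median 6.73) and 0 to 1.15 CPM (median 0.701). Those lower were *Clec12a*, *Tac2*, *Ido1*, *Vip*, *Ppp1r1b*, *Penk*, *Cd4*, *Sh3rf2*, *Lbhd2*, *Adora2a*, *Crabp1*, *Gpr6*, *Rxrg*, *Ccno* and *Spint1*, with log2 fold changes from −5.29 to −3.60. *Cd4*, best known as a coreceptor of T cells, had 1.94 to 3.47 CPM (median 2.47) in PV IPs and 58.9 to 86.1 CPM (median 80.7) in Gad2 IPs (log2 fold change −4.93, SE 0.162, edgeR BH-adjusted p = 1.15e-11). *Rxrg*, the retinoid X receptor of the striatum, had 5.68 to 9.37 CPM (median 5.96) and 76.6 to 104 CPM (median 82.2) (log2 fold change −3.69, SE 0.141, edgeR BH-adjusted p = 7.82e-11), and *Ido1*, which breaks down tryptophan, had 0.163 to 0.778 CPM (median 0.332) and 10.8 to 15.2 CPM (median 13.7) (log2 fold change −5.14, SE 0.278, edgeR BH-adjusted p = 2.32e-09). By difference in mean level, the 5 genes highest in PV IPs were *Lrp1*, *Cog7*, *Kif5a*, *Sparcl1* and *Ahdc1*, and the 5 lowest were *Ppp1r1b*, *Penk*, *Hpca*, *Aplp1* and *Calm2*. *Kif5a*, a kinesin of axonal transport, had 2189 to 3762 CPM (median 2609) against 807 to 1192 CPM (median 1142) (log2 fold change 1.37, SE 0.143, edgeR BH-adjusted p = 1.74e-06), and *Calm2*, a calmodulin gene, had 836 to 1520.3 CPM (median 1240.3) against 2200.3 to 3259.7 CPM (median 2954) (log2 fold change −1.22, SE 0.133, edgeR BH-adjusted p = 2.71e-06).

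Total RNA of the same lines served as the background of the comparison. In simulated counts its fit recovered 23.9% of genes changed by a log2 of 1 and 87.9% of those changed by 2. With 3 libraries of each line, edgeR called 0 of 14887 genes at a BH-adjusted p of 0.05 or less (0%), although 251 had an unadjusted p under 0.05, and DESeq2 called 4 higher and 4 lower. Among these, named after their values were seen, were *Alas2*, *Hbb-bt*, *Hbb-bs* and *Tagap*, higher in the PV line, and *Fam205a2*, *Snhg11* and *Trank1*, lower. The first 3 are genes of red blood cells. *Snhg11* and *Trank1* were lower in PV total RNA but higher in PV IPs, with log2 fold changes in the IPs of 1.39 (SE 0.145) and 0.73 (SE 0.125), while *Tagap* and *Alas2* were higher in both, with 1.32 (SE 0.218) and 2.0 (SE 0.532) in the IPs. *Drd1* had 17.2, 26.8 and 27.8 CPM in PV total RNA and 18.6, 22.7 and 37.8 CPM in Gad2 total RNA, which overlapped (log2 fold change −0.14, SE 0.332, edgeR BH-adjusted p = 0.916). For *Pvalb* the values were 75.8, 80.5 and 130 CPM and 98.7, 159 and 188 CPM, which overlapped as well (log2 fold change −0.64, SE 0.316, edgeR BH-adjusted p = 0.9).

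Whether the line difference was larger in the IPs than in total RNA was tested as an interaction of line and preparation. Of 14734 genes 4389 (29.8%) were called, 1662 (11.3%) with a higher and 2727 (18.5%) with a lower PV to Gad2 ratio in IPs than in total RNA. DESeq2 called 2503 higher and 2571 lower, so that the directions were nearly even with that tool. Of the 27 striatal projection neuron genes 24 were called lower and 3 were not called in this test, with a median of −2.28, and of the 24 PV interneuron genes 9 were called higher and 1 lower, with a median of 0.86. *Drd1* had an interaction of −2.65, SE 0.272, edgeR BH-adjusted p = 2.51e-06 and *Pvalb* of 1.08, SE 0.336, edgeR BH-adjusted p = 0.0225. *Slc17a6* also passed the test (3.01, SE 0.649, edgeR BH-adjusted p = 0.00262), as did *Penk* (−5.58, SE 0.305, edgeR BH-adjusted p = 2.82e-09). Of the astrocyte genes 2 of 12 and of the oligodendrocyte genes 4 of 12 were called higher. This fit left out that 6 mice gave both libraries. With mouse as a block, on these 6 mice, 1428 genes were called higher and 1968 lower, 3073 of the 4389 calls kept their direction, and 23 striatal projection neuron genes were called lower and 1 higher and 6 PV interneuron genes higher and 1 lower. *Drd1*, *Pvalb*, *Slc17a6* and *Penk* kept their calls.

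HD mice gave another set of libraries of the same lines that shared no mouse with the controls. PV IP re_R2 of this set was sequenced in a second run. It had 107753586 counts on mouse genes, against 32941857 to 52739812 in the other HD PV IPs. Of the 6 HD Gad2 IPs 4 deviated from their group most like the control Gad2 IP of the same number (correlations 0.520 to 0.592), so the sets were not shown to be independent. Of 14743 genes tested in 5 PV and 6 Gad2 IPs, 7521 (51%) were called, 3500 (23.7%) higher and 4021 (27.3%) lower. Among 14465 genes tested in both genotypes, 6376 were called in the same direction in both, which is 76.1% of the 8383 control calls and 85.9% of the 7426 HD calls, and 0 were called in opposite directions. Log2 fold changes correlated across genes (Spearman's rho = 0.909, Pearson's r = 0.920), and 1362 of the 1495 genes called higher beyond 1 in controls (91.1%) and 873 of the 934 called lower beyond −1 (93.5%) were called the same way in HD mice. *Drd1* in HD mice had 15.3 to 20.7 CPM (median 19.6) in PV IPs and 85.7 to 123 CPM (median 99.9) in Gad2 IPs (log2 fold change −2.45, SE 0.132, edgeR BH-adjusted p = 5.62e-08), and *Ank1* had a log2 fold change of 1.58 (SE 0.13). *Pvalb* had 514 to 785 CPM (median 649) in PV IPs and 361 to 720.3 CPM (median 436) in Gad2 IPs, which overlapped, and it was not called (log2 fold change 0.45, SE 0.18, edgeR BH-adjusted p = 0.0526). The glycinergic and hindbrain list had a median of −0.10 in HD mice, against 0.81 in controls. A test of the difference itself, the interaction of genotype and line, called 0 of 14626 genes in edgeR (0%), with 446 at an unadjusted p under 0.05 and a lowest BH-adjusted p of 0.14, and no other tool was run on it. With the replicate block within each line, it also called 0.

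**Figure D3:**
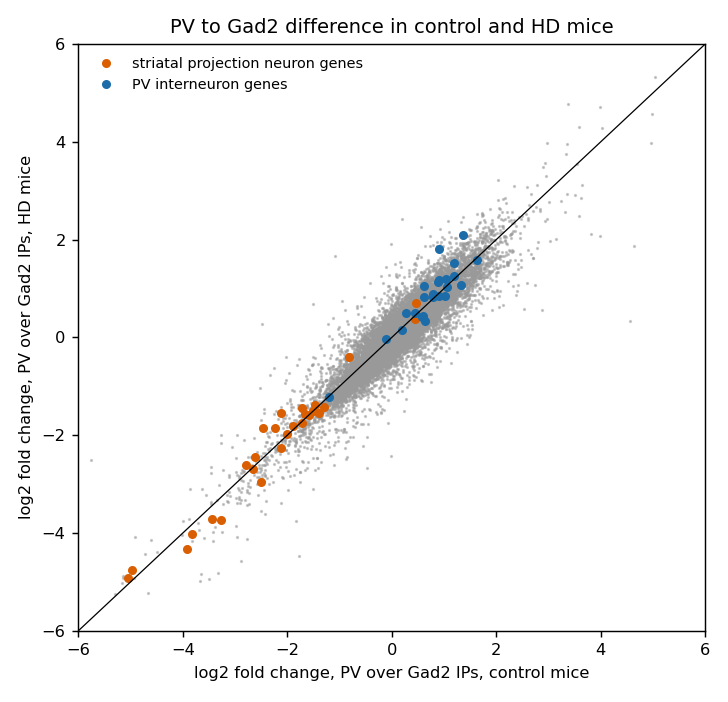
Log2 fold change (PV over Gad2 IPs) of 14465 genes in control mice (horizontal axis, 6 and 6 libraries) and in HD mice (vertical axis, 5 and 6 libraries), with the line of equal values. Striatal projection neuron genes (orange) lie mainly at the lower left, and PV interneuron genes (blue) at the upper right but nearer the origin.

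Because PV genes and neuropeptide genes moved as groups, promoters were searched for the letters of 3 known motifs on both strands, in the 300 bases from 250 before to 50 after each RefSeq start. TCAAGGTCA, the motif of estrogen-related receptors such as *Esrrg*, was in 139 of 32851 promoters (0.423%), in 6 of 1122 genes called higher beyond 1 (0.535%) and in 4 of 709 called lower beyond −1 (0.564%). These are the genes with a promoter in the table, out of 1499 and 951, and the others were not searched. CTATTTTTA, a form of the motif of MEF2 factors, was in 0.493% of all promoters, 0.178% of the genes higher and 0.141% of the genes lower. TGACGTCA, the cyclic AMP response element (CRE), was in 1.79% of all promoters, 2.32% of the genes higher and 1.97% of the genes lower, and in 3.49% of the genes tested. The shares of all genes tested were 0.364% for TCAAGGTCA and 0.382% for CTATTTTTA. Counted by gene, as for the genes called, the shares over all promoters were 0.466% for TCAAGGTCA, 0.570% for CTATTTTTA and 2.03% for the CRE. Promoters of 2 genes named above with the first motif and of 2 with the CRE are shown, from RefSeq on GRCm38.p6, as the 250 bases before the start on the strand of the gene, with the motif, on either strand, in capitals. *Syt2* (chr1:134646362-134646611, plus strand) and *Hcn2* (chr10:79716384-79716633, plus strand) were higher in PV IPs and hold the first motif, read here from the opposite strand as TGACCTTGA, beginning 167 and 168 bases before the start. *Sst* (chr16:23890845-23891094, minus strand) and *Gpr6* (chr10:41072291-41072540, minus strand) were lower and hold the CRE at 48 and 78 bases. Neither motif was limited to genes of that direction, as the CRE was also at *Flt1*, which was higher. A match describes these letters only and shows no binding.
Syt2: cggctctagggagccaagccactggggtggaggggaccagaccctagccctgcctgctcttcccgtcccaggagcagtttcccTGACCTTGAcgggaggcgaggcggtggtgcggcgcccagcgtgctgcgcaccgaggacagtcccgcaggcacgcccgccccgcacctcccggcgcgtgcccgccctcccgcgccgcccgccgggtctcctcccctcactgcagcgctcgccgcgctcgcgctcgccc
Hcn2: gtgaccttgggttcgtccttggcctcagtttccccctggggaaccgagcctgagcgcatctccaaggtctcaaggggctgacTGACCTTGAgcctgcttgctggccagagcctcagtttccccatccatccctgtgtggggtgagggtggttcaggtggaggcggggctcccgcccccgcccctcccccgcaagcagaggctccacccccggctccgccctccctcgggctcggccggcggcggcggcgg
Sst: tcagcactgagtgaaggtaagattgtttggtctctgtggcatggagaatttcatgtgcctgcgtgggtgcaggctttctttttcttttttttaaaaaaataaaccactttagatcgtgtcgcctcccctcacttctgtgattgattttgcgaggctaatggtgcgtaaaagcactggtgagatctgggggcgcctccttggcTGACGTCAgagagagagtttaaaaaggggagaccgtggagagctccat
Gpr6: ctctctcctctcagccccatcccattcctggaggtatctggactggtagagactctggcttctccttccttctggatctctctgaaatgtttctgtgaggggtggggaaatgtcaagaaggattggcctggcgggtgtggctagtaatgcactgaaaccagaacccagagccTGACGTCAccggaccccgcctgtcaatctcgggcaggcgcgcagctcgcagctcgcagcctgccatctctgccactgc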

How the data were processed

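Ribosome-bound and total RNA of control and HD cerebrum were sequenced as stranded poly(A) libraries. The authors aligned the reads with STAR, quantified them with Salmon through nf-core/rnaseq and deposited estimated counts per gene, not normalized (build GRCm38.p6 per the submitters' processing notes; the annotation release was not stated). Of the deposited values 8.57% were not whole, and all were rounded. Library sizes exclude the 92 ERCC spike-ins. Gene types, positions and exonic lengths came from GENCODE M21, which held 55141 of the 55401 mouse genes by identifier without version, and promoters came from RefSeq (GRCm38.p6).

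Lines were compared in edgeR 4.0.16 (R 4.3.3) with TMM normalization and the quasi-likelihood test, limited to protein-coding genes whose mean count in the libraries compared exceeded 10, at BH-adjusted p of 0.05 or less. SE is the log2 fold change over the square root of F. Fits held the 12 control IPs, the 6 control total RNA libraries, these 18 together for the interaction, 11 HD IPs, and the 23 IPs of both genotypes. Library totals on mouse genes in the 12 IPs were 23256772 to 47869606, which bounds the precision of genes with few counts. Replicate numbers were not used to pair libraries, since same-numbered libraries of the lines came from different mice, and whether they mark batches was not given in the labels; no pair of replicates of a line was alike within counting error (lowest chi-square per degree of freedom 8.05). The fits were tested on simulated counts with log2 changes of 0.5, 1 and 2. In control IPs 52.2, 95.5 and 98.5% of changed genes were recovered, and in HD IPs 25.4, 92.5 and 97.0%. The shares were 2.99, 23.9 and 87.9% in total RNA and 2.99, 28.4 and 92.4% in the interaction. The simulation changed far fewer genes than were called in the IPs and capped dispersions at their median, so recovery in the data may be lower. Tables and figures were made with Python 3.11.15, pandas 2.3.3, numpy 2.4.6 and matplotlib 3.10.9.

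Named genes were members of 25 gene lists (some genes are on more than 1 list) and, in each direction, the 15 called genes that changed most by log2 fold change and the 5 that differed most in mean CPM, given no overlap between lines and, for the former, a mean of at least 5 CPM in the higher line. Mitochondrially encoded genes were skipped, and some withheld genes are not reported here. The members and lists were chosen with earlier results of these data known. *Gpr52*, *Agrp*, *Ocm*, *Has2*, *Cox7b2* and *Cox8c* were not tested. Alternatives were DESeq2 1.42.0, its size factors, library totals without TMM, no filter, filterByExpr, genes of any type, a block for replicate number (replicate block), adjustment for *Xist*, a log2 fold threshold of 2, mouse as block for the interaction, all control cerebral IPs or both genotypes in 1 fit, thinning to the lowest depth, and leaving out each library. The blocks in HD mice and for genotype and line were chosen only once results were known.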

Additional observations from a re-analysis of the deposited data

Results flagged for a closer look

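In each group of 6 IP libraries, a value was set apart when its gap to the nearest other library exceeded the share of the group's range given by Dixon's 95% critical value. This held for 39 of 398 groups of values, over genes named here, summed gene lists and measures of library quality, where chance gives about 1 in 20. Ranges in brackets are those of the other 5 libraries of the line, in CPM unless another unit is given.

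PV replicate 1 was highest of its line in *Glul* (1338, against 887 to 1009.7), *Syt6* (31.1, against 17.7 to 21.1) and *Cdh5* (3.46, against 1.82 to 2.20). PV replicate 1 was lowest of its line in *Scn4b* (519, against 599.6 to 636). Its summed level of calcium and HCN channels was the highest, 2366 CPM (2036 to 2159.7). PV replicate 2 was highest of its line in *Gabra6* (27.5, against 0.0829 to 3.28), *Calb1* (317, against 73.8 to 138), *Car8* (254, against 15 to 63.3), *Cbln3* (98.0, against 2.51 to 19.2) and *Neurod1* (21.3, against 2.76 to 7.57). Its summed level of Purkinje and granule cell genes was the highest, 2444 CPM (747 to 1199). PV replicate 3 was highest of its line in *Vamp2* (1063, against 816 to 904) and *Sparcl1* (2534, against 1799 to 1962). Its summed level of synaptic vesicle release genes was the highest, 24565 CPM (20817 to 22172). PV replicate 6 was highest of its line in *Cacnb1* (70.7, against 52.2 to 57.9), *Bcan* (189, against 137 to 149.7), *Cox8b* (8.0, against 4.44 to 5.23) and *Rxrg* (9.37, against 5.68 to 6.68). PV replicate 6 was lowest of its line in *Slc17a6* (81.0, against 129 to 154), *Gabra4* (36.8, against 77.4 to 96.8), *Gabrg1* (8.65, against 18.5 to 21.9), *Sdha* (598, against 686 to 737) and *Glra2* (7.49, against 13.4 to 16.9).

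Gad2 replicate 1 was highest of its line in *Adcyap1* (9.15, against 2.62 to 4.49) and *Apoe* (361, against 93.8 to 157). Mitochondrially encoded genes took 0.437% of counts in Gad2 replicate 1 (0.0511 to 0.169%). Gad2 replicate 2 was highest of its line in *Cdk5rap2* (15, against 7.91 to 9.33). Gad2 replicate 4 was highest of its line in *Pcp2* (71.6, against 0.0828 to 12.1) and *Car8* (100.4, against 5.30 to 40.2). Gad2 replicate 5 was lowest of its line in *Drd5* (1.95, against 3.45 to 4.31) and *Cd4* (58.9, against 76.9 to 86.1). Protein-coding genes took 89.1% of counts in Gad2 replicate 5 (96.3 to 98.0%). The number of protein-coding genes detected was 14248 in Gad2 replicate 5 (16255 to 16501). The 10 most abundant genes took 14.0% of counts in Gad2 replicate 5 (4.66 to 6.30%). Its summed level of perineuronal net genes was the lowest, 430.1 CPM (528 to 576). Gad2 replicate 6 was lowest of its line in *Kcna2* (152, against 226 to 259), *Scn3b* (123, against 153 to 168) and *Syt1* (896, against 1389.6 to 1649). Its summed level of glutamatergic neuron genes was the highest, 4625 CPM (3339.7 to 3754). The causes of these differences between libraries were not tested.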

How the results depend on the processing

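In controls, the counts of 4589 genes called higher and 3815 called lower stayed within 1.5 times under every alternative tried, 3825 to 4814 and 3367 to 5043 where all libraries were kept and 3584 to 4536 and 3563 to 4366 when each library was left out. Calls with a log2 fold change beyond 1 numbered 1217 to 1588 and 896 to 1147 when each library was left out, and 165 and 241 beyond 2, a stricter threshold by construction. The share of calls that were higher, 54.6%, ran from 46.7% without PV replicate 5 to 57.1% with library totals and no TMM, so which direction held more genes depended on the setting. DESeq2 called 4 and 4 genes between total RNA of the lines, where edgeR called 0 and 0 also without each library, and 2503 genes higher in the interaction of line and preparation, against 1662 in edgeR. The cause was not tested.

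Lines shared replicate numbers but not mice. Same-numbered libraries had correlations of deviations from −0.0941 to 0.273, and 1 of 6 Gad2 libraries correlated best with the PV library of its own number. With the replicate block, 4622 genes were called higher and 3760 lower in controls, 0 and 0 in total RNA, and 2066 and 2261 in HD mice, against 3500 and 4021 without the block, on fewer libraries. Between genotypes, same-numbered Gad2 IPs had correlations of −0.388 to 0.592, and 4 of 6 correlated best with their own number, against 1 of 4 in PV IPs (−0.391 to 0.388). With number within line as a replicate block, the interaction of genotype and line still called 0 genes. The fit of both genotypes together carried no such block. When each HD library was left out, calls ran from 3058 to 4131 higher and 3346 to 3933 lower.

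Of 169 genes named and tested 157 were called, and 133 of these kept direction and call in every alternative. The other 24 lost the call in at least 1, 19 of them with *Xist* as a covariate. *Plcxd3* was called under 3 alternatives only, at 0.93 with the replicate block (edgeR BH-adjusted p = 0.0249), with *Xist* as a covariate and with both genotypes in 1 fit. *Ermn*, *Opalin*, *Sox10*, *Apoe*, *Itpr1* and *Car8* were each called under at least 1 alternative only. *Pcp2*, which was not called, went from 0.76 to −0.23 without PV replicate 2 and to 3.05 without Gad2 replicate 4. No alternative turned the sign of a list's median other than those of GABA-A and ionotropic glutamate receptor subunits. Total RNA had 3 libraries of each line, which limits what it can show of differences in the tissue.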

Other observations

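Some genes were far more abundant in IPs than in the tissue they came from. Of 4249 genes with a mean of at least 50 CPM in control PV IPs, when IPs of all 4 cerebral lines and total RNA were normalised together, a few were more than 10 times as high there as in total RNA of both lines. Among them were *Cog7* (27.8-fold), *Ahdc1* (23.0-fold), *Rock2* (18.2-fold), *Taf1* (15.5-fold) and *Spp1* (12.0-fold), chosen after their values were seen. *Cog7*, a Golgi tethering subunit, had a mean of 1433 CPM (1154 to 1759, n = 6) in PV IPs, 348 CPM (192 to 439, n = 6) in Gad2 IPs, 1226 CPM (470.5 to 2003, n = 5) in SST IPs and 176 CPM (139 to 227, n = 6) in vGluT2 IPs, but 51.5 CPM (46.1 to 57.5, n = 6) in total RNA. *Ahdc1*, the kinase *Rock2* and the general transcription factor subunit *Taf1* were likewise above total RNA in the mean of every IP line. *Spp1* was high mainly in PV IPs, with a mean of 300 CPM there but 46.4 CPM in Gad2, 52.0 CPM in SST and 36.8 CPM in vGluT2 IPs and 25.0 CPM in total RNA. The cause of these levels was not tested.

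Gad2 IP replicate 5, the library with fewest genes detected, held 9.90% of its counts on a ribosomal RNA gene, against a median of 1.83% in the other Gad2 IPs, and 1.44% on *Lars2*, a mitochondrial leucyl-tRNA synthetase, against 0.209%.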
